A study of Mus musculus with 38 samples.

Results

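Transcripts of 10 genes that write, recruit or read methylation of lysine 9 of histone H3 were examined in tumors of the MMTV-PyMT mouse model of breast cancer. The genes were the methyltransferases Suv39h1, Suv39h2, Ehmt1, Ehmt2, Setdb1 and Setdb2, the corepressor Trim28, and the HP1 proteins Cbx1, Cbx3 and Cbx5. They were chosen by name, including the older names Bat8 for Ehmt2 and Euhmtase for Ehmt1, and 22 of the 41174 probes tested on the arrays carry one of these names. Suv39h2 has 5 probes, Cbx5 has 4, Cbx3 has 3, Ehmt1, Setdb1 and Cbx1 have 2 each, and the remaining genes have 1. All 10 genes were measured, while 5 of the 22 probes rose above background on at most 2 of the 38 arrays, namely 3 of Suv39h2, 1 of Ehmt1 and 1 of Setdb1.

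Methylation of this lysine marks heterochromatin, the compact and largely silent part of the genome. SUV39H1 and SUV39H2 place the trimethyl mark at pericentromeric repeats, EHMT1 (GLP) and EHMT2 (G9a) work as a pair to place mono- and dimethyl marks within gene-rich chromatin, and SETDB1 is brought by TRIM28 (KAP1) and its zinc finger partners to endogenous retroviruses. HP1 beta (Cbx1), HP1 gamma (Cbx3) and HP1 alpha (Cbx5) bind the methylated lysine through their chromodomains and bring in further repressors. SETDB2 is a less studied relative of SETDB1.

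The tumors arose from hyperplasias of MMTV-PyMT;actin-GFP mice, in which the mammary tumor virus promoter drives polyoma middle T antigen, transplanted into cleared mammary fat pads of wild-type FVB/n females. GFP-positive cells were sorted from each sample before RNA was extracted, so the values describe bulk sorted cells, in which fewer cells of a type and less RNA per cell cannot be told apart. In the progression experiment 5 adenomas (early outgrowths), 6 carcinomas (late outgrowths), 6 samples of disseminated cells (GFP-positive cells from lungs, several mice pooled per sample) and 5 samples of lung metastases (taken after the primary tumor was removed) were profiled, all untreated. In the chemotherapy experiment 6 untreated tumors, 6 residual tumors (labeled regressed, after the first dose of docetaxel, doxorubicin and cyclophosphamide) and 4 relapsed tumors (labeled resistant, after the fourth dose) were profiled. Nothing in the sources used here ties the disseminated cells or metastases to the same animals as the carcinomas.

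Each array compared a sample (Cy5) with a common mouse reference RNA (Cy3), and a value below is the log2 ratio of sample to reference, so that 0 means a signal equal to the reference. A gene was read from its probe with the highest mean signal in the experiment and called changed at an adjusted p below 0.05 in limma's moderated test, adjusted with Benjamini-Hochberg over all 41174 probes. Ratios of different probes are not levels of their genes relative to each other. RNA was amplified over more rounds in the progression experiment than in the chemotherapy experiment, and values were compared only within an experiment. Adenoma and disseminated samples shared 3 slides, and carcinoma and metastasis samples shared the other 3 slides, scanned on another day, so for the other 4 progression comparisons slide and group cannot be told apart.

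Of the progression arrays, 3 correlated least with the rest of their group. The median correlation across probes with the other arrays of the group was 0.698 for disseminated replicate 6, 0.767 for carcinoma replicate 6 and 0.774 for metastases replicate 4, against 0.783 to 0.959 for the other progression arrays. The share of spots above background was 48.4% and 51.1% in adenoma replicates 4 and 3 and 61.6% in replicate 1, against 74.8% and 75.5% in the other 2 adenomas and 63.8% to 78.9% in the later groups, and its part in the changes against adenomas was not tested. Markers of blood and lung cells also varied. The mean log2 ratio of 14 macrophage markers was 0.48 ± 0.28 (SD, n = 5) in adenomas, 1.11 ± 1.89 (n = 6) in carcinomas, 4.11 ± 0.74 (n = 6) in disseminated cells and 3.29 ± 1.95 (n = 5) in metastases, and it reached 4.88 in carcinoma replicate 6, where the next highest carcinoma was at 0.89. Between 11 and 14 of these markers were above background in each of the progression arrays. The one with the brightest probe, Lyz2, averaged -0.55 in adenomas, 0.63 in carcinomas, 6.10 in disseminated cells and 5.32 in metastases. Mammary epithelial markers (12 genes) averaged 2.80 ± 0.28 in adenomas, 2.88 ± 0.52 in carcinomas, 1.50 ± 1.40 in disseminated cells and 2.76 ± 1.52 in metastases, with 0.09 in metastases replicate 4 as the lowest metastasis and 3.55 in disseminated replicate 6 as the highest disseminated sample. Alveolar macrophage markers (6 genes, Chil3 with the brightest probe) averaged 0.22 ± 0.32, 0.98 ± 0.85, 4.91 ± 0.73 and 3.84 ± 1.03 in adenomas, carcinomas, disseminated cells and metastases, and Chil3 itself -0.995, -0.23, 7.62 and 6.89. Lung epithelial markers (8 genes, Aqp5 with the brightest probe) averaged 1.27 ± 0.27, 1.45 ± 0.21, 2.65 ± 0.47 and 2.19 ± 0.46 in the same order. Aqp5 itself averaged 3.52, 4.39, 1.49 and 2.13, with its lowest means in the lung samples. Neutrophil markers (8 genes, S100a8 with the brightest probe) averaged 1.40 ± 0.14, 1.97 ± 0.78, 4.27 ± 0.86 and 2.34 ± 1.10, while S100a8 itself averaged 5.61, 4.69, 6.59 and 3.77 and was lowest in metastases. Endothelial markers (7 genes) averaged 0.29 ± 0.22, 0.99 ± 0.37, 2.16 ± 0.71 and 1.23 ± 0.19, with Vwf, which has the brightest probe, at -0.29, 0.57, 3.82 and 2.33. Fibroblast markers (7 genes) averaged -2.65 ± 0.65, -3.77 ± 0.65, -3.21 ± 1.09 and -4.23 ± 0.82, and Col1a2, with the brightest probe, -3.75, -5.35, -5.11 and -5.91. Erythroid markers (5 genes) averaged 1.57, 2.25, 2.98 and 1.97, those of T and NK cells (9 genes) 1.26, 0.47, 1.32 and 0.69, and those of B cells (5 genes) -1.08, -1.17, -0.27 and -0.99. The part of other cell types in the results below was not tested, except where a value is given.

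**Figure D1:**
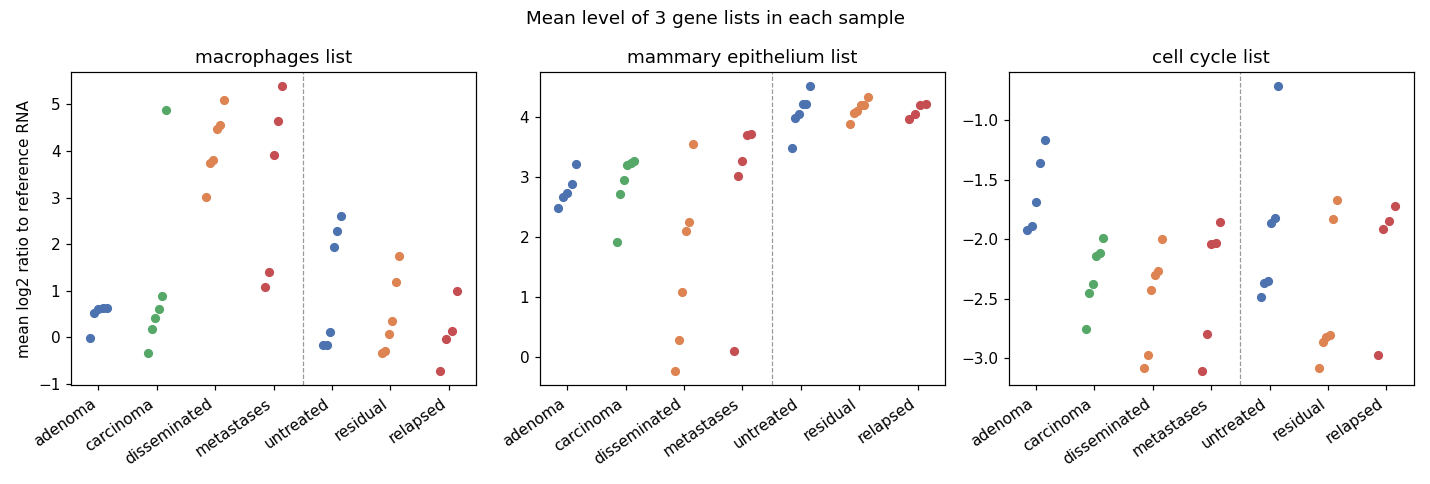
Mean log2 ratio of sample to reference RNA for 14 macrophage, 12 mammary epithelial and 22 cell cycle genes, 1 point per sample, by group; the dashed line parts the progression from the chemotherapy experiment, and each panel has its own scale. The macrophage markers of all 6 disseminated samples lie above 3.01, while the metastases spread from 1.07 to 5.39.

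Promoter sequences are shown for 3 of the genes, namely Suv39h2, which rose in metastases, and Cbx3 and Cbx5, which followed each other most closely in the chemotherapy samples. Each runs from 250 bases before to 50 after a RefSeq start site on GRCm38.p6, 5′ to 3′ on the gene's own strand, and capitals mark matches to 3 motifs searched on both strands. These were the E2F-type motif, spelled TTTNNCGC, the cell cycle homology region, spelled TTTGAA, and the CCAAT box.
Suv39h2 (chr2:3474937-3475236, minus strand): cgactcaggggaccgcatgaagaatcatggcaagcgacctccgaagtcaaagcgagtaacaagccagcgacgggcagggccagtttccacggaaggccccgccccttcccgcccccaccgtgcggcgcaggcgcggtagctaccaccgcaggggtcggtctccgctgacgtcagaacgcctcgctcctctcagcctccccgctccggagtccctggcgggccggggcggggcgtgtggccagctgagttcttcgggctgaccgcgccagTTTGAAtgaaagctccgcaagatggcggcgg
Cbx3 (chr6:51470366-51470665, plus strand, the more upstream of 2 starts): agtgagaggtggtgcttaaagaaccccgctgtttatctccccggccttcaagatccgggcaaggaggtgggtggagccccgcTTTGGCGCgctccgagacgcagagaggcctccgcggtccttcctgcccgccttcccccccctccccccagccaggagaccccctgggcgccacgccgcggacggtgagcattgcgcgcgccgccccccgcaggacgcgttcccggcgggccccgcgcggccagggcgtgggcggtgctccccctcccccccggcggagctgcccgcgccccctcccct
Cbx5 (chr15:103239803-103240102, minus strand, the more upstream of 2 starts): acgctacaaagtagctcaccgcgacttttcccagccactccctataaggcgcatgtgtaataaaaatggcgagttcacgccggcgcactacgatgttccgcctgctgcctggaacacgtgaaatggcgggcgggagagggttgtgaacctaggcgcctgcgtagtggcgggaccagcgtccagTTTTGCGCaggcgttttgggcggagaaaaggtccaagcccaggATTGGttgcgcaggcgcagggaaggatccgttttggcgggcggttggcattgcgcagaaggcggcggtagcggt
Cbx3 holds TTTGGCGC from 168 to 161 bases before the start, and Cbx5 holds TTTTGCGC from 67 to 60 bases before it, with ATTGG, the opposite strand of the box spelled CCAAT, from 24 to 20 bases before it. Suv39h2 holds TTTGAA from 20 to 25 bases after the start. No 2 of the matches overlap. Of 32851 promoters of this length, 5.17% hold the E2F-type motif, 17.9% TTTGAA and 37.4% CCAAT. Of the 14 listed promoters of the 10 genes, 3 hold the first, 1 the second and 4 the third. The remaining promoter with the E2F-type motif belongs to Suv39h1, whose sequence is not shown. The other listed starts of Cbx3 and Cbx5 hold none of the 3 motifs, nor do the promoters of Ehmt1, Ehmt2, Cbx1 and Trim28. The matches describe the letters only, and the arrays measured no promoter. A link between the matches and the likeness of Cbx3 and Cbx5 was not tested.

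Along progression the 10 genes did not move as a block. Against adenomas, Ehmt2 was lower in carcinomas. Trim28 and Cbx1, the latter on the brighter of its 2 probes, were lower in disseminated cells. In metastases Ehmt2 and Trim28 were lower and Suv39h2 was higher. Cbx1 and Cbx5 were called lower there on their brightest probe only. The number of genes called was 1 of 10 in carcinomas against adenomas, where 11.4% of all probes were called, 2 of 10 in disseminated cells against adenomas (17.2% of all probes) and 5 of 10 in metastases against adenomas (27.6% of all probes). Against carcinomas, 2 of 10 were called in disseminated cells (24% of all probes) and 3 of 10 in metastases (20.9% of all probes), and 2 of 10 were called in metastases against disseminated cells (13.4% of all probes). Without disseminated replicate 6, carcinoma replicate 6 and metastases replicate 4, a choice made after seeing the data, the 6 counts in the same order were 2, 5, 5, 3, 6 and 6, while the probes called among all 41174 changed from 4704, 7089, 11365, 9876, 8625 and 5527 to 5820, 9195, 11240, 12094, 10223 and 10241. Leaving out carcinoma replicate 6 alone gave 6 in metastases against carcinomas (10342 of all probes). Leaving out disseminated replicate 6 alone gave 5 in metastases against disseminated cells (8740 of all probes). In the latter comparison, leaving out disseminated replicate 2, 3 or 4 or metastases replicate 1, 3 or 4 gave 1 (3558 to 6013 of all probes). The metastasis comparisons share their 5 samples, and those against adenomas share the 5 adenomas. The median log2 change of the 10 genes in metastases against adenomas was -0.34, and that of all probes was 0.03.

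**Figure D2:**
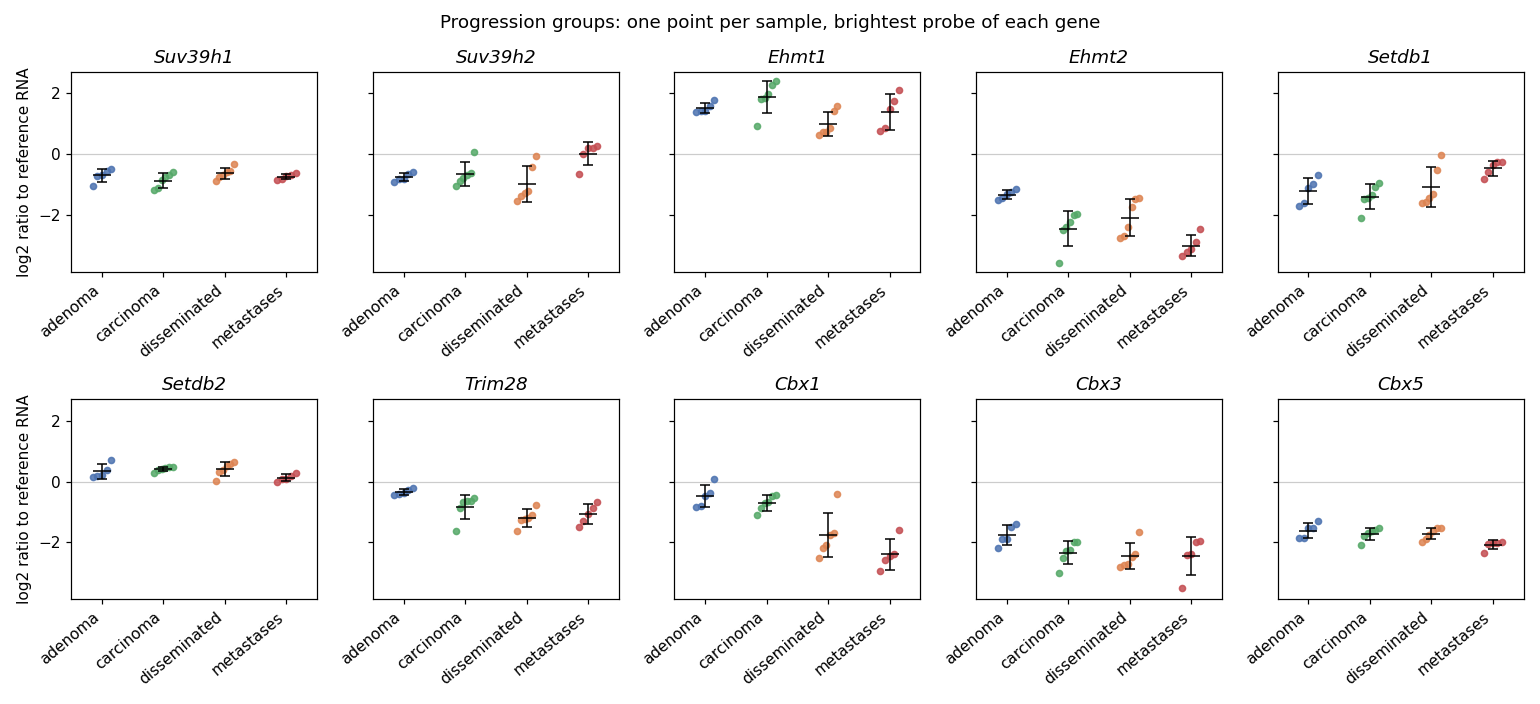
Log2 ratio of sample to reference RNA (y axis) of each of the 10 genes, read from its brightest probe, in the 4 progression groups, with 1 point per sample; horizontal and vertical bars show the group mean and SD. Of the probes plotted, those of Ehmt2 and Cbx1 fell furthest in metastases (group means -3.00 and -2.39). The other bright Cbx1 probe, not plotted, did not fall, with means of -0.15 in adenomas and 0.29 in metastases. Suv39h2 and Setdb1 were highest in metastases (0.01 and -0.46), and Suv39h1 stayed between -1.16 and -0.33 in all 22 samples.

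Suv39h2 and its relative Suv39h1 differed in pattern. Suv39h2 was read from 2 usable probes, both of the RefSeq transcript NM_022724, at chr2:3381885-3381944 and, nearer the 3′ end, at chr2:3375594-3375653 (build mm7, minus strand). On the first, brighter probe the log2 ratios were 0.20, 0.26, 0.22, -0.64 and 0.02 in the 5 metastases and -0.58, -0.81, -0.64, -0.92 and -0.81 in the 5 adenomas. Carcinomas ran from -1.03 through a median of -0.72 to 0.08, and disseminated cells from -1.52 through -1.24 to -0.04. Thus 4 of 5 metastases lay above every adenoma, and metastases replicate 4, with the lowest mammary markers, lay among them. The highest carcinoma was replicate 6 and the highest disseminated sample replicate 6, both among the arrays that stood apart. The change was 0.76 ± 0.26 (SE, limma adjusted p = 0.032) against adenomas, 0.98 ± 0.25 (adjusted p = 0.012) against disseminated cells, and 0.66 ± 0.25 (adjusted p = 0.063) against carcinomas. With slide as a block the last was called, at 0.67 (limma adjusted p = 0.046) with a random and 0.72 (adjusted p = 0.018) with a fixed block. The call against adenomas was lost on leaving out any of 6 arrays (metastases replicates 1, 2 and 3, adenoma replicates 2, 4 and 5; adjusted p at most 0.14).

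The second Suv39h2 probe separated the groups more widely. It read 0.52, 0.79, 0.46, 0.41 and -0.04 in metastases and -0.80, -0.44, -1.38, -1.43 and -0.70 in adenomas, while carcinomas ran from -1.17 through -1.11 to -0.51 and disseminated cells from -1.35 through -0.76 to 0.41. Every metastasis lay above every adenoma and every carcinoma. The change was 1.38 ± 0.25 (limma adjusted p = 0.00061) against adenomas, 1.42 ± 0.24 (adjusted p = 0.00078) against carcinomas and 1.08 ± 0.24 (adjusted p = 0.0062) against disseminated cells. This probe is dim, being above background on all 5 metastasis arrays but on 2 of 5 adenoma, 3 of 6 carcinoma and 2 of 6 disseminated arrays, so the lower groups rest partly on signal near background. Within the 3 slides that held both groups, metastases exceeded carcinomas on the brighter probe by 0.90, 0.68 and 0.52.

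Suv39h1 has 1 probe (chrX:6494869-6494928, mm7), above background on all 38 arrays. It averaged -0.69 ± 0.21 (SD, n = 5) in adenomas, -0.86 ± 0.23 (n = 6) in carcinomas, -0.62 ± 0.18 (n = 6) in disseminated cells and -0.73 ± 0.09 (n = 5) in metastases, and all 4 groups overlapped. The largest difference, 0.24 in disseminated cells against carcinomas, had a 95% interval of 0.01 to 0.47 and was not called (limma adjusted p = 0.13), although it was with the deposited log2 ratios (0.37, adjusted p = 0.027). The change in metastases against adenomas was -0.05 with an interval of -0.30 to 0.21.

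Ehmt2, which encodes G9a, had its highest values in adenomas. Its log2 ratios there were -1.50, -1.24, -1.14, -1.30 and -1.44, and in metastases -3.22, -2.46, -3.11, -3.35 and -2.87. Carcinomas ran from -3.57 through -2.31 to -1.98 and disseminated cells from -2.75 through -2.05 to -1.45. No carcinoma or metastasis reached the lowest adenoma, whereas 2 of the 6 disseminated samples did. Ehmt2 was 3.2-fold lower in metastases than in adenomas (log2 change -1.68 ± 0.29, limma adjusted p = 0.00036) and 2.17-fold lower in carcinomas (-1.12 ± 0.28, adjusted p = 0.014). In disseminated cells the change was -0.75 ± 0.28 (adjusted p = 0.067), which a fixed block for the slides brought to -0.84 and a call (adjusted p = 0.03), and was -1.32, -0.71 and -0.32 on the 3 shared slides. Further, metastases lay below disseminated cells by 0.92 ± 0.28 (adjusted p = 0.032), a call lost on leaving out any of 6 arrays (disseminated replicates 2, 3 and 4, metastases replicates 1, 3 and 4; adjusted p at most 0.093). Against carcinomas the change in metastases was -0.56 ± 0.28 (adjusted p = 0.17), with -0.81, -1.04 and 0.44 on the 3 shared slides, and it was called without carcinoma replicate 6 (-0.78, adjusted p = 0.02). That lowest carcinoma was the array with macrophage markers at 4.88, and without it the carcinoma change against adenomas was -0.89 (adjusted p = 0.021).

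Ehmt1, whose product pairs with G9a, did not follow Ehmt2. Its brighter probe (chr2:24798113-24798172, mm7) read 1.58, 1.38, 1.78, 1.43 and 1.42 in adenomas and 1.49, 1.75, 0.85, 0.75 and 2.12 in metastases. Carcinomas ran from 0.92 through 1.91 to 2.41 and disseminated cells from 0.65 through 0.81 to 1.60. The single call was in disseminated cells against carcinomas (-0.87 ± 0.25, limma adjusted p = 0.017), although the groups overlapped through carcinoma replicate 6 at 0.92. Against adenomas the changes were 0.35 in carcinomas, -0.52 in disseminated cells and -0.12 in metastases, the last with a 95% interval of -0.70 to 0.45. Its second probe was at background on all arrays.

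Setdb1 was higher in metastases than in carcinomas. Its probe (chr3:95198697-95198756, mm7) read -0.82, -0.26, -0.37, -0.25 and -0.58 in metastases and -0.67, -0.97, -1.10, -1.60 and -1.69 in adenomas, of which 3 were above background. Carcinomas ran from -2.11 through -1.39 to -0.94 and disseminated cells from -1.59 through -1.37 to -0.03. Every metastasis lay above every carcinoma, with a change of 0.94 ± 0.27 (limma adjusted p = 0.018), and on the 3 shared slides the differences were 0.80, 1.19 and 0.92. The call was lost without normalization between arrays and with Aquantile (0.94, adjusted p = 0.053 in both). Against adenomas the change was 0.75 ± 0.28 (adjusted p = 0.054) and against disseminated cells 0.62 ± 0.27 (adjusted p = 0.14). The former was called under other settings, among them the scanner's processed signals (1.49, limma adjusted p = 0.011), median centring (1.03, adjusted p = 0.012) and the deposited log2 ratios (0.998, adjusted p = 0.015). The highest disseminated sample was replicate 6, and without it the change against disseminated cells was 0.83 (adjusted p = 0.017). Setdb2 stayed between -0.00 and 0.72 in all 22 samples, with means of 0.33 ± 0.24, 0.41 ± 0.08, 0.40 ± 0.23 and 0.12 ± 0.11 in adenomas, carcinomas, disseminated cells and metastases. It was called in none of the 6 comparisons in the reported fit. Every metastasis lay below every carcinoma, by 0.29 ± 0.11 on average (adjusted p = 0.063). Some alternatives called it lower in metastases. Examples are -0.34 against carcinomas with a replicate block (limma adjusted p = 0.019), -0.31 against adenomas with median centring (adjusted p = 0.04) and -0.36 against disseminated cells without disseminated replicate 6 (adjusted p = 0.014).

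Trim28, the corepressor that brings in SETDB1 and HP1, was highest in adenomas. Its values were -0.36, -0.27, -0.21, -0.45 and -0.42 in adenomas and -1.05, -0.67, -1.29, -1.51 and -0.86 in metastases. Carcinomas ran from -1.62 through -0.66 to -0.55 and disseminated cells from -1.63 through -1.22 to -0.76. None of the 17 samples of the other 3 groups reached the lowest adenoma. Trim28 was lower by 0.86 ± 0.18 in disseminated cells (limma adjusted p = 0.0041) and by 0.74 ± 0.19 in metastases (adjusted p = 0.0068), and the carcinoma change was -0.49 ± 0.18 (adjusted p = 0.084). The disseminated change was -0.81, -1.11 and -0.72 on the 3 shared slides.

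Among the HP1 genes, probes of the same gene gave different pictures, and the results are therefore given by probe. Cbx1 has 2 bright probes on chromosome 11, plus strand (mm7), at chr11:96910548-96910607 and, further 3′, at chr11:96916978-96917037. The first, of transcript NM_007622, read -0.85, -0.36, -0.46, 0.08 and -0.80 in adenomas and -2.46, -2.59, -2.39, -2.94 and -1.58 in metastases. Carcinomas ran from -1.10 through -0.69 to -0.43 and disseminated cells from -2.51 through -1.91 to -0.42. Carcinomas overlapped with adenomas, 5 of 6 disseminated samples lay below every adenoma and carcinoma, and so did all 5 metastases. On this probe Cbx1 was 3.77-fold lower in metastases than in adenomas (-1.92 ± 0.30, limma adjusted p = 0.00018) and 3.21-fold lower than in carcinomas (-1.68 ± 0.29, adjusted p = 0.00087). It was also lower in disseminated cells, by 1.29 ± 0.29 against adenomas (adjusted p = 0.0061) and by 1.06 ± 0.28 against carcinomas (adjusted p = 0.0096). On shared slides metastases lay below carcinomas by 1.43, 2.12 and 1.60, each on its own slide.

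The second Cbx1 probe, of predicted transcript XM_990359, did not fall in metastases. It read -0.12, -0.14, -0.15, -0.51 and 0.15 in adenomas and 0.30, 0.22, 0.10, -0.28 and 1.12 in metastases, with carcinomas from -0.98 through -0.14 to -0.02 and disseminated cells from -1.13 through -0.75 to 0.10. Its change in metastases was 0.45 against adenomas (limma adjusted p = 0.2) and 0.95 ± 0.24 against disseminated cells (adjusted p = 0.012). The difference between the probes, first minus second, was -0.32 ± 0.59 (SD, n = 5) in adenomas, -0.43 ± 0.18 (n = 6) in carcinomas, -1.11 ± 1.05 (n = 6) in disseminated cells and -2.69 ± 0.12 (n = 5) in metastases. The difference of differences was -2.36 for metastases against adenomas (exact two-sided permutation p = 0.0079, the smallest that 5 against 5 samples allow) and -2.26 against carcinomas (exact p = 0.0022). After adjustment over 48 such tests, made over all pairs of probes of a gene above background on every progression array, these values were 0.063 and 0.052, and none of the 48 fell below 0.05.

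Cbx3, which encodes HP1 gamma, also had probes that disagreed, although these differed in the size of a fall and not in its direction. Its brightest probe (chr6:51446687-51446746, mm7, nearest the 3′ end) read -1.90, -1.87, -1.38, -2.18 and -1.48 in adenomas and -1.96, -2.41, -2.39, -3.48 and -1.98 in metastases. On it the change was -0.68 ± 0.27 in metastases (limma adjusted p = 0.069), -0.70 ± 0.26 in disseminated cells (adjusted p = 0.071) and -0.57 ± 0.26 in carcinomas (adjusted p = 0.16), and no comparison was called. The change in disseminated cells was called without disseminated replicate 6 (-0.86, adjusted p = 0.022), and that in metastases without metastases replicate 1 (-0.80, adjusted p = 0.047) or 5 (-0.80, adjusted p = 0.044). With the mean of the Cbx3 probes all 3 changes were called, at -0.77 in carcinomas (adjusted p = 0.0096), -0.81 in disseminated cells (adjusted p = 0.005) and -1.12 in metastases (adjusted p = 0.00029). A dimmer probe upstream of it, which spans 2 stretches between chr6:51438597-51441720, read -1.77, -1.80, -0.10, -1.28 and -1.48 in adenomas and -3.68, -3.74, -3.34, -5.06 and -3.67 in metastases, with carcinomas from -3.27 through -3.09 to -2.46 and disseminated cells from -3.88 through -2.75 to -2.23. Every sample of the later groups lay below every adenoma. This probe was lower by 1.69 ± 0.33 in carcinomas (adjusted p = 0.0033), by 1.55 ± 0.33 in disseminated cells (adjusted p = 0.0044) and by 2.61 ± 0.34 in metastases (adjusted p = 3.9e-05), the last the largest change of any of the 22 probes. The difference between the probes, upstream minus brightest, changed by -1.93 in metastases against adenomas (exact two-sided permutation p = 0.0079, adjusted p = 0.063). In carcinomas against adenomas it changed by -1.11 (exact two-sided permutation p = 0.0022, adjusted p = 0.052). The third probe was above background on 11 of 22 progression arrays and was called in no comparison.

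**Figure D3:**
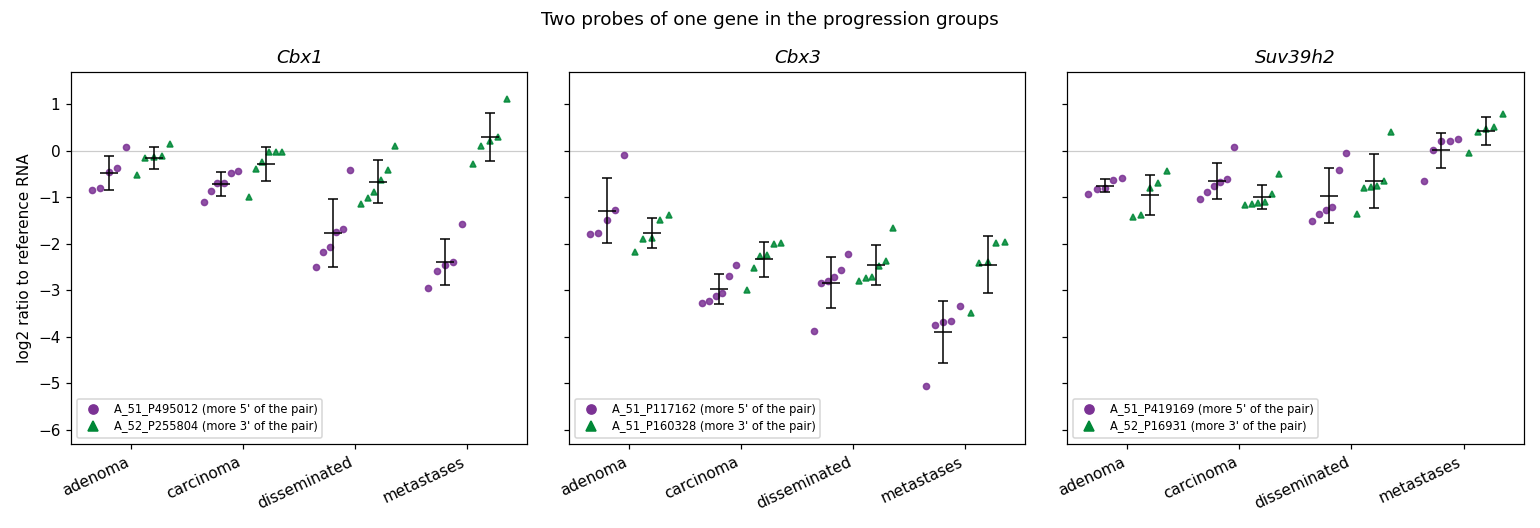
Log2 ratio of sample to reference RNA (y axis) of 2 probes each of Cbx1, Cbx3 and Suv39h2 in the progression groups, 1 point per sample; circles are the probe nearer the 5′ end of the pair, triangles the one nearer the 3′ end, and bars show mean and SD. In metastases the Cbx1 probes part (means -2.39 and 0.29) and the Cbx3 probes part (-3.90 and -2.45), whereas both Suv39h2 probes are at their highest.

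Cbx5, which encodes HP1 alpha, changed less. Its brightest probe (chr15:103179894-103179953, mm7) read -1.54, -1.52, -1.84, -1.87 and -1.29 in adenomas and -2.01, -2.05, -2.35, -2.01 and -1.97 in metastases. Carcinomas ran from -2.09 through -1.66 to -1.53 and disseminated cells from -1.97 through -1.70 to -1.52. All metastases lay below all adenomas, with a change of -0.47 ± 0.13 (limma adjusted p = 0.0095), and the change against carcinomas was -0.36 ± 0.12 (adjusted p = 0.039), a call that was lost on leaving out any of 9 of the 11 arrays compared. The other 3 probes changed in metastases against adenomas by -0.40, 0.12 and -0.26, none called. The 5′-most of them (chr15:103187346-103187405) was lower in disseminated cells than in adenomas, by 0.80 ± 0.20 (adjusted p = 0.0097).

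**Figure D4:**
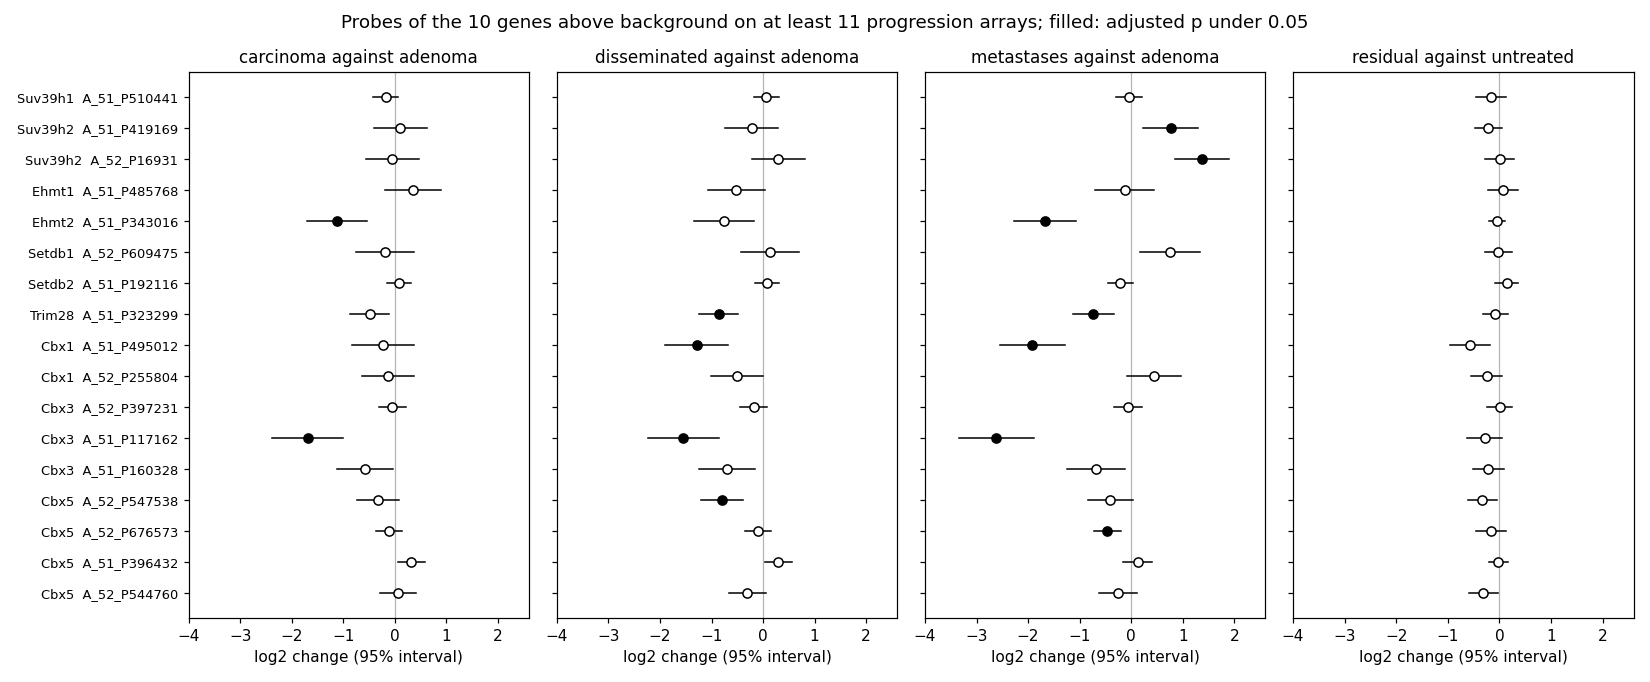
Log2 change with 95% interval (x axis) of the 17 probes of the 10 genes that were above background on at least 11 progression arrays, ordered within a gene from 5′ to 3′, in 3 comparisons with adenomas and in residual against untreated tumors; filled points have an adjusted p below 0.05. Of the panels shown, metastases against adenomas has the largest changes, from -2.61 for a Cbx3 probe to 1.38 for a Suv39h2 probe. The latter is dim, above background on 2 of 5 adenoma arrays, so its change rests partly on signal near background. No point is filled in the chemotherapy panel.

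Over all 22 probes, with every probe counted, 7 were called in metastases against adenomas (2 higher and 5 lower, where 27.6% of all probes were called, 14.2% higher and 13.4% lower), 5 in disseminated cells against adenomas (all lower, where 17.2% of all probes were called and 9.63% called lower) and 2 in carcinomas against adenomas (both lower, where 11.4% were called and 5.18% called lower). Against carcinomas 2 of the 22 were called in disseminated cells (24% of all probes) and 4 in metastases (20.9%), and 5 in metastases against disseminated cells (13.4%). One of the probes in disseminated cells was a Suv39h2 probe near background, for which 1 of 5 adenomas and no disseminated sample was above background. The dimmer upstream Cbx3 probe ran from a mean of -1.29 in adenomas to -3.90 in metastases. With each gene read from its brightest probe, the gene whose group means spread most was Cbx1 (1.92). Across the 22 progression arrays the genes most like it among 18420 compared were the histone H4 genes H4f16 (Pearson r = 0.970) and H4c14 (r = 0.965) and the muscle-type cytochrome oxidase subunit Cox7a1 (r = 0.964). These correlations are descriptions, since the arrays share slides, reference and group differences.

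Chemotherapy was followed by no called change in these genes. In residual against untreated tumors 0 of 10 were called by limma, where 0.16% of all probes were, and 0 had an unadjusted p below 0.05 (8.85% of all probes). In relapsed against untreated tumors the counts were 0 and 0 (0.00486% and 7.65% of all probes), and in relapsed against residual tumors 0 and 2 (0.238% and 7.35% of all probes). The same linear model without limma's moderation of the variances also called 0 of 10 in each of the 3 comparisons after adjustment. The 2 genes with an unadjusted p below 0.05 were Cbx1 and Cbx3, higher in relapsed than in residual tumors by 0.38 (95% interval 0.04 to 0.72, limma adjusted p = 0.62) and by 0.40 (0.07 to 0.74, adjusted p = 0.57).

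The brightest Cbx3 probe read -1.03, -0.43, -0.29 and -0.26 in relapsed tumors, from -1.14 through -0.98 to -0.46 in residual tumors and from -0.91 through -0.76 to -0.32 in untreated tumors. Thus 3 of 4 relapsed tumors lay above every residual tumor and relapsed replicate 1 among them. The Cbx1 probe that was brightest in this experiment, the more 3′ one, read 0.77, 1.24, 1.52 and 1.48 in relapsed tumors, and ran from 0.43 through 0.90 to 1.22 in residual and from 0.92 through 1.17 to 1.31 in untreated tumors. The more 5′ Cbx1 probe differed by -0.57 between residual and untreated tumors (95% interval -0.96 to -0.19, limma adjusted p = 0.34), with untreated tumors from -0.72 through -0.28 to 0.41 and residual tumors from -1.003 through -0.83 to -0.48.

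The methyltransferases moved little. Ehmt2 ranged from -0.00 to 0.43 over the 16 tumors, with means of 0.19 ± 0.13 (SD, n = 6) in untreated, 0.14 ± 0.09 (n = 6) in residual and 0.15 ± 0.11 (n = 4) in relapsed tumors, and its change in residual tumors had an interval of -0.20 to 0.10. Trim28 averaged -1.38 ± 0.30, -1.46 ± 0.11 and -1.39 ± 0.13 in the same order. Suv39h1 averaged -1.40 ± 0.28, -1.57 ± 0.23 and -1.43 ± 0.20, with an interval of -0.46 to 0.12 for residual against untreated tumors. Suv39h2 averaged -0.54 ± 0.18, -0.76 ± 0.22 and -0.76 ± 0.29, and its interval ran from -0.48 to 0.05, with the sample channel above background on 12 of 16 arrays. Ehmt1 averaged 1.19 ± 0.24, 1.26 ± 0.29 and 1.20 ± 0.22, and Setdb1 -0.18 ± 0.25, -0.20 ± 0.24 and -0.10 ± 0.09. These intervals leave room for changes of the sizes they span. Mammary epithelial markers averaged 4.08 ± 0.35, 4.14 ± 0.16 and 4.11 ± 0.12, and macrophage markers 1.10 ± 1.30, 0.45 ± 0.84 and 0.09 ± 0.71.

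**Figure D5:**
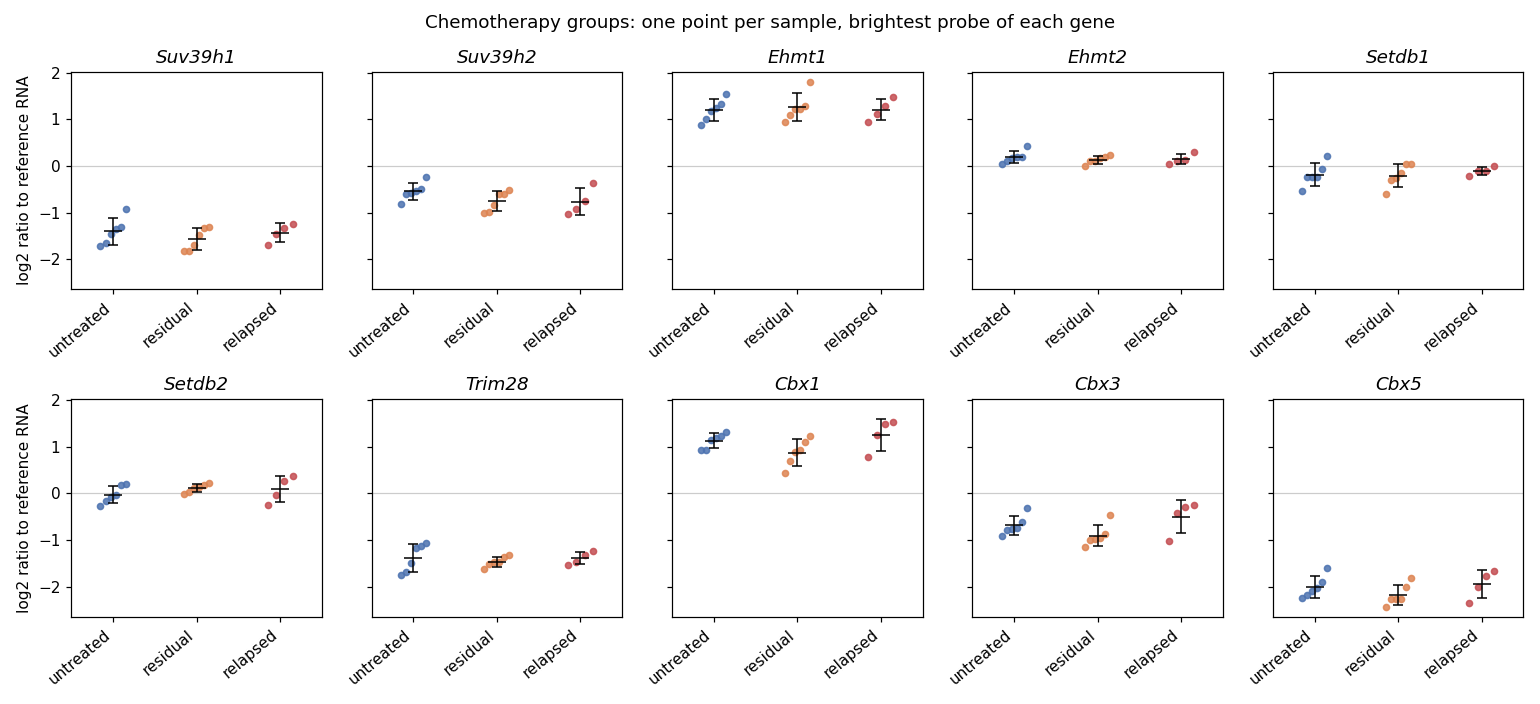
Log2 ratio of sample to reference RNA (y axis) of each of the 10 genes in untreated, residual and relapsed tumors, read from its brightest probe, with 1 point per sample and bars for group mean and SD. The 3 groups overlap for each of the 10 genes, and how many of all probes overlap in this way was not counted. The largest spread of group means is that of Cbx3 (0.40).

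With each gene read from its brightest probe, Cbx3 had the widest spread of group means across the 16 tumors. Among 18420 genes the most similar to it in profile was Cbx5 (Pearson r = 0.907), another HP1 gene, followed by the methyltransferase genes Smyd3 (r = 0.877) and Ezh2 (r = 0.871). Their arrays share slides and reference, and no test was made.

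Genes that work with these proteins moved in both directions during progression. Of 25 genes of cofactors and partners, 10 were lower in carcinomas than in adenomas and 0 higher, 5 were lower in disseminated cells and 0 higher, and 11 were lower in metastases and 2 higher. Of all probes, 6.24% were called higher and 5.18% lower in carcinomas against adenomas, 7.59% and 9.63% in disseminated cells, and 14.2% and 13.4% in metastases. The median log2 change of the 25 genes was -0.53, -0.24 and -0.38, against 0.05, 0.00033 and 0.03 for all probes. The largest falls in metastases against adenomas were those of Zfp644 (-2.53 ± 0.45, limma adjusted p = 0.00046), a zinc finger partner of G9a and GLP, Chaf1b (-2.06 ± 0.35, adjusted p = 0.0003), a subunit of the chromatin assembly factor that loads histones behind the replication fork, and Atf7ip (-1.73 ± 0.25, adjusted p = 9.2e-05), which stabilizes SETDB1. The largest fall in carcinomas was that of Uhrf1 (-1.48 ± 0.24, adjusted p = 0.00089), which links methylated lysine 9 to DNA methylation. The 2 risers in metastases were Cdyl (1.42 ± 0.32, adjusted p = 0.0026), a chromodomain protein, and Morc3 (1.35 ± 0.38, adjusted p = 0.013). Metastases against carcinomas had 5 higher and 6 lower (10% and 10.9% of all probes). The largest changes were those of Cdyl (1.67 ± 0.30, limma adjusted p = 0.0012), Morc3 (1.65 ± 0.37, adjusted p = 0.0041) and Zfp644 (-1.91 ± 0.43, adjusted p = 0.0046). Mphosph8, a subunit of the HUSH silencing complex, was higher by 1.17 ± 0.28 (adjusted p = 0.0067), and the remodeler Chd3 was lower by 1.49 ± 0.26 (adjusted p = 0.00092). Disseminated cells had 5 higher and 1 lower against carcinomas (9.67% and 14.3% of all probes), led by Lbr, the lamin B receptor that binds HP1 (1.58 ± 0.22, adjusted p = 0.00011). Metastases had 0 higher and 3 lower against disseminated cells (7.73% and 5.7% of all probes), among them Atf7ip (-1.71 ± 0.24, adjusted p = 0.00028).

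Of 11 demethylases that remove the mark, no fall was called against adenomas, and 1 rose in carcinomas, 2 in disseminated cells and 2 in metastases, where 6.24%, 7.59% and 14.2% of all probes were called higher. Kdm4a had the largest change, 2.23 ± 0.23 in metastases (limma adjusted p = 5.8e-06), with means of -1.54 ± 0.14 in adenomas, -0.26 ± 0.28 in carcinomas, -1.42 ± 0.37 in disseminated cells and 0.69 ± 0.61 in metastases. It was also higher in carcinomas than in adenomas (1.29 ± 0.22, adjusted p = 0.0015) and lower in disseminated cells than in carcinomas (-1.16 ± 0.21, adjusted p = 0.00091). Jmjd1c was higher in metastases than in adenomas by 1.64 ± 0.52 (adjusted p = 0.023), and in disseminated cells Kdm7a (1.22 ± 0.32, adjusted p = 0.013) and Kdm3b (0.84 ± 0.25, adjusted p = 0.024) were higher. Against carcinomas 4 demethylases were higher in metastases (10% of all probes) and 4 in disseminated cells (9.67% of all probes), where 1, Kdm4a, was lower (14.3% of all probes).

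The cell cycle list, whose genes are transcribed in dividing cells, moved beside these results. Of 22 genes 8 were lower in carcinomas than in adenomas, 13 in disseminated cells and 11 in metastases, with 0, 0 and 1 higher. Of all probes 5.18%, 9.63% and 13.4% were called lower in these comparisons and 6.24%, 7.59% and 14.2% higher. The median change of the 22 genes was -0.72, -1.01 and -0.95. Pcna, the replication clamp, which has the brightest probe of the list and was singled out after its values were seen, averaged -2.56, -2.41, -1.49 and 0.20 in adenomas, carcinomas, disseminated cells and metastases, and was the gene called higher in metastases (2.76 ± 0.57, limma adjusted p = 0.0015). The mean log2 ratio of the 22 genes was -1.60 ± 0.33 (SD, n = 5) in adenomas, -2.30 ± 0.28 (n = 6) in carcinomas, -2.51 ± 0.43 (n = 6) in disseminated cells and -2.36 ± 0.55 (n = 5) in metastases. The part of the cell cycle list in the lower values of Ehmt2, Trim28, Cbx1 and Cbx3 was not tested. In the chemotherapy experiment none of the 25 cofactors, 11 demethylases or 22 cell cycle genes was called by limma in any of the 3 comparisons. Of all probes only 0.16%, 0.00486% and 0.238% were called in residual against untreated, relapsed against untreated and relapsed against residual tumors. At an unadjusted p below 0.05 the counts in residual against untreated, relapsed against untreated and relapsed against residual tumors were 2, 2 and 3 cofactors, 2, 1 and 1 demethylases, and 3, 0 and 1 cell cycle genes. Of all probes 8.85%, 7.65% and 7.35% had such a p in these comparisons.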

How the data were processed

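Gene expression was measured in 38 samples on Agilent 2-color arrays with Cy5 for the sample and Cy3 for the Universal mouse reference, without dye swaps. Spot intensity on both channels, not normalized, was deposited by the authors as read by Agilent Feature Extraction 10.7 (submitters' processing notes). The authors also deposited log2 ratios for the 38 arrays in 1 matrix. The study's methods name limma with normexp, loess and quantile normalization. The other columns used here, flags that mark a spot as above background, saturated or an outlier, were deposited by the authors in the same array files. The intensities gave the main values and the matrix an alternative.

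The software was limma 3.58.1 and statmod 1.5.0 in R 4.3.3. Background correction was by normexp (offset 50), followed by loess on each array and quantile normalization across an experiment's arrays, and outlier spots (median 185 of 45018 per array, 0 of them of the 10 genes) were left out. For each experiment, 1 limma fit held all its groups and no covariate, with Benjamini-Hochberg adjustment over 41174 probes, and a call needed an adjusted p below 0.05. Of the probes, 22951 were named through their accession in RefSeq's gene table and 18223 kept the name that the scanner output gives. Promoter sequences are RefSeq's (GRCm38.p6), and all 10 genes matched by symbol. Probe positions are those of build mm7 in the array files, and the exon each probe lies in was not determined. Precision is limited by the number of arrays (4 to 6 per group). The limma p-values set a difference against the spread between samples, estimated jointly over all groups of an experiment. In the progression experiment this joins the disseminated samples, each pooled from several mice, with the other groups. Between 48.4% and 78.9% of spots were above background on an array. Differences between probes of a gene were compared with an exact permutation test over samples. The scripts were tested on simulated data.

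The genes named are the 10 chosen genes with every probe, from the lists of partners and demethylases the 3 largest called rises and falls per comparison, the 3 genes most correlated with the member of widest group means in each experiment, and for a cell type list the gene with its brightest probe. The members, lists and rule were chosen with earlier results of these data known, and the tests between probes after the values of the probes were seen.

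The alternatives were a normexp offset of 0, the scanner's processed signals, median centring, no or Aquantile normalization between arrays, the authors' matrix, a filter on dim probes (kept if the sample channel was above background on at least 0.5 of the arrays of a group), averaging the probes of each gene, the slide as random or fixed block, a replicate block, only the groups compared, the linear model without moderated variances (equal variance in all groups), a 2-fold minimum as well, and each replicate left out in turn.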

Additional observations from a re-analysis of the deposited data

Results flagged for a closer look

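The brightest probe of each gene was examined in each of 7 groups, and in 6 of the 70 sets 1 sample stood apart by Dixon's test at its 95% critical value, which chance alone passes in about 1 of 20 sets. Carcinoma replicate 6 stood apart for Ehmt2, at -3.57 against -2.48 to -1.98 in the other carcinomas, and for Trim28, at -1.62 against -0.87 to -0.55. Disseminated replicate 6 stood apart for Cbx3, at -1.66 against -2.79 to -2.37. Among metastases replicate 4 stood apart for Suv39h2, at -0.64 against 0.02 to 0.26, and replicate 3 for Cbx5, at -2.35 against -2.05 to -1.97. In untreated tumors replicate 3 stood apart for Ehmt2, at 0.43 against 0.05 to 0.18. All values are log2 ratios to the reference. The first 4 belong to the 3 arrays that correlated least with their groups.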

How the results depend on the processing

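Of 15 called changes of single genes, all 15 kept their direction under every alternative that was run. Their sizes moved. At its smallest Suv39h2 in metastases was at 0.43 against adenomas (reported 0.76) and 0.41 against disseminated cells (0.98). Ehmt1 in disseminated cells against carcinomas came to -0.44 (-0.87). In metastases Setdb1 came to 0.53 against carcinomas (0.94) and Cbx5 to -0.25 against adenomas (-0.47). Those of Ehmt2 in carcinomas and metastases against adenomas and those of Cbx1 in disseminated cells against adenomas and carcinomas and in metastases against adenomas also stayed called throughout. The call of Cbx1 in metastases against carcinomas was lost with the mean of its 2 probes (-0.55, adjusted p = 0.0504), which also brought its change against adenomas to -0.73. That of Suv39h2 in metastases against adenomas was lost without normalization between arrays, with Aquantile, and on leaving out 6 of the 10 arrays in turn (highest adjusted p = 0.14). That of Setdb1 in metastases against carcinomas was lost without normalization between arrays and with Aquantile (highest adjusted p = 0.053). That of Cbx5 in metastases against adenomas was lost with the deposited log2 ratios (0.054), and against carcinomas with an offset of 0, median centring, the deposited log2 ratios and the mean of its probes as well (highest adjusted p = 0.12). With only the groups compared, those of Ehmt2 and Suv39h2 in metastases against disseminated cells were lost. A 2-fold minimum also dropped the called changes smaller than that. Uncalled values changed sign in 58 of 1143 alternatives in the progression and 58 of 740 in the chemotherapy experiment, and became called in 55 and 0 of them.

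Counts of genes called that moved by over 1.5 times were these, with the number called among all 41174 probes in parentheses. The reported fit called 4704 probes in carcinomas, 7089 in disseminated cells and 11365 in metastases against adenomas. It called 9876 in disseminated cells and 8625 in metastases against carcinomas, and 5527 in metastases against disseminated cells. With the mean of a gene's probes carcinomas against adenomas gave 2 (3285 of 28786 genes). With a replicate block metastases gave 6 against carcinomas (10152) and 4 against disseminated cells (6495). With only the groups compared they gave 5 (11219) and 0 (1606). With a 2-fold minimum as well disseminated cells against adenomas gave 1 (3547) and metastases against adenomas 2 (5731). Disseminated cells against carcinomas then gave 1 (4188), metastases against carcinomas 1 (4066) and metastases against disseminated cells 0 (2979). Without the 3 arrays that stood apart, chosen after seeing the data, carcinomas and disseminated cells against adenomas gave 2 (5820) and 5 (9195). Metastases then gave 6 against carcinomas (10223) and 6 against disseminated cells (10241). Leaving out each replicate gave 1 in carcinomas (2834 to 4731), 2 to 3 in disseminated cells (4511 to 9130) and 4 to 6 in metastases (9442 to 11355) against adenomas. It gave 2 to 3 in disseminated cells (7742 to 11388) and 2 to 6 in metastases (6116 to 10342) against carcinomas. Metastases against disseminated cells gave 1 to 5 (3558 to 8740), and each chemotherapy comparison gave 0. The count of 6 in metastases against carcinomas came without carcinoma replicate 6, and that of 5 in metastases against disseminated cells without disseminated replicate 6. Smaller shifts included 7 in metastases against adenomas with the scanner's processed signals (12703) and with median centring (11956). Disseminated cells against adenomas gave 3 with the mean of a gene's probes (5473 of 28786 genes). Metastases against disseminated cells gave 3 without normalization between arrays (5129). The cause of these shifts was not tested. All probes called in residual against untreated tumors ranged from 1 (slide as a fixed block) to 84 (only the groups compared), with 66 in the reported fit, in relapsed against untreated tumors from 0 (normexp offset of 0, among others) to 30 (without relapsed replicate 1; reported 2), and in relapsed against residual tumors from 41 to 117 (reported 98).

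Replicate numbers share only a number. The correlation of same-numbered samples' deviations from their group means ran from -0.40 to 0.32 over 31 pairs of progression arrays, with 8 above 0.1, and from -0.41 to 0.42 over 14 pairs of chemotherapy arrays, with 6 above 0.1. The replicate block moved metastases against carcinomas to 6 and metastases against disseminated cells to 4, as given above, and no other count of the 10 genes by over 1.5 times, while all probes called in residual against untreated tumors came to 3 with it. Slide as a fixed block could be fitted in the progression experiment only for metastases against carcinomas and disseminated cells against adenomas. It gave 4 and 3 genes called there (9686 and 9015 of all probes), adding Suv39h2 to the former and Ehmt2 to the latter. Signal near background limits the second Suv39h2 probe, Setdb1 in adenomas, and Setdb2 and Suv39h2 in the chemotherapy samples.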
